A study of Mus musculus with 8 samples.

Results

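An extended hepatectomy removes most of the liver. Liver taken 14 days after this surgery was compared with normal liver in 4 of the 8 libraries of a mouse RNA sequencing series. The comparison takes the 2 libraries labelled day 14 and the 2 normal control libraries, and every gene with at least 1 FPKM (fragments relative to the length of the transcript and to all mapped fragments) in at least 2 of these 4 libraries, which left 11293 of the 47719 genes listed. All 4 libraries came from liver of wild type C57BL/6 mice. The controls were 10 weeks old and are described as normal. The day 14 mice had the operation and, by the series' design text, received eLO, an abbreviation that the labels do not spell out, in a study of encapsulated human hepatocyte organoids. Their age is not given. No library shows day 14 after hepatectomy without eLO, so surgery, the time since it, eLO and age cannot be told apart here. Whether the libraries within a group are separate animals is not in the labels, so a p-value here measures only how far these libraries spread, which may be technical.

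A liver that has lost most of its mass regrows by division of the hepatocytes that remain, with endothelial, stellate and macrophage cells following. During regrowth it goes on making plasma proteins, clearing ammonia, forming bile and controlling blood sugar. Many liver genes also follow the clock of the cell and the state of feeding. The clock runs on the activators Arntl and Clock, which switch on their own repressors, the Per and Cry genes and Ciart. Insulin after a meal raises Srebf1 and lowers Igfbp1 and G6pc.

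The 4 libraries differed in more than single genes. Across the genes tested, log2(FPKM + 1) correlated at r = 0.987 between the 2 controls, at r = 0.963 between the 2 day 14 libraries and at 0.868 to 0.925 between groups. Genes are not independent replicates in these values. Within the controls 146 genes (1.29%) lay at least 2-fold apart, and within day 14 806 genes (7.14%). FPKM totals were 717258 and 731451 in control replicates 1 and 2 and 1298005 and 1050576 in day 14 replicates 1 and 2, so the values are not scaled to a shared total. Mitochondrially encoded genes held 8.09% and 7.71% of the total in the controls and 43.3% and 17.6% at day 14. Read depth is unknown. Hepatocyte markers were high in every library, with Alb between 23786 and 32804 FPKM. The Y-linked Ddx3y stood at 16.3 to 18.8 FPKM, and Xist, the RNA of the inactive X chromosome, at 0.0113 FPKM or less in all 4. Of pancreatic enzyme markers 9 of 13 were at 0 in all 4 libraries, and of muscle markers 6 of 10.

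In all, 3239 genes (28.7%) passed the threshold of 0.05 for the adjusted p, and of these 1699 (15.0%) were higher at day 14 and 1540 (13.6%) lower. The test was limma on log2(FPKM + 1) with Benjamini-Hochberg adjustment over the 11293 genes. On this scale changes of low genes are understated. The counts given below for lists of genes stand against these shares of all genes, 15.0% higher and 13.6% lower. A gene under 1 FPKM in both libraries of a group passed the filter through the other group alone, so its direction was fixed by the filter. There were 384 such genes on the day 14 side, of which 243 were called higher, and 351 on the control side, of which 209 were called lower. Those named below on the day 14 side are Ciart, Per3, Tnnc1, Snora57, Cyp2a4, Ccne1, Chil3, S100a4, Retnlg, Csf3r and Ighg1. On the control side they are Npas2, Irs1, Irs2, F8, Lyve1 and Adgre1. For all of these genes the direction is a description. The groups did not overlap for 8252 genes (73.1%). Statements below that the groups of a named gene lay apart stand against this share. For genes picked as those that rose or fell most, groups that do not overlap were a condition of the choice. The number of calls rested on the controls, because 216 genes were called without control replicate 1 and 194 without control replicate 2, against 3994 and 5863 without day 14 replicate 1 or 2. Called in all of these fits were 144 genes. Without a day 14 library only the 2 controls, which lie close together, set the spread, so a call kept in such a fit says little. With no filter on low values 2 of 20090 genes were called, both higher. When mitochondrially encoded genes were left out and the libraries brought to equal totals, 1050 genes were higher and 2657 lower. The higher share of the calls was then 28.3% instead of 52.5%, and the median log2 change of all genes moved from -0.01 to -0.22. Below, paired values are replicates 1 and 2 of a group in that order, log2 changes are day 14 minus control with their standard error (SE), and adjusted p-values are those of limma.

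Short and GC-rich transcripts stood higher at day 14. Among protein-coding genes split into 8 groups by transcript length, the shortest (median 1122 bases) lay 0.28 and 0.62 log2 units above the control mean in day 14 replicates 1 and 2. The longest (median 7607 bases) lay at -0.30 and -0.35, while both controls stayed within 0.03 of their mean in every length group. In the shortest group 28.0% of genes rose and 4.27% fell, and in the longest 6.25% rose and 25.5% fell. By GC content, the lowest group lay at -0.29 and -0.23 and the highest at 0.47 and 0.42. After each library's trend with length and GC content was removed, 1397 genes (12.4%) were higher and 1048 (9.30%) lower, and 2017 of the 3223 earlier calls that could be refitted kept their direction. Where the text says so, a named gene lost its call in that fit or a list changed its count. The part of the trend in the other results was not tested.

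**Figure D1:**
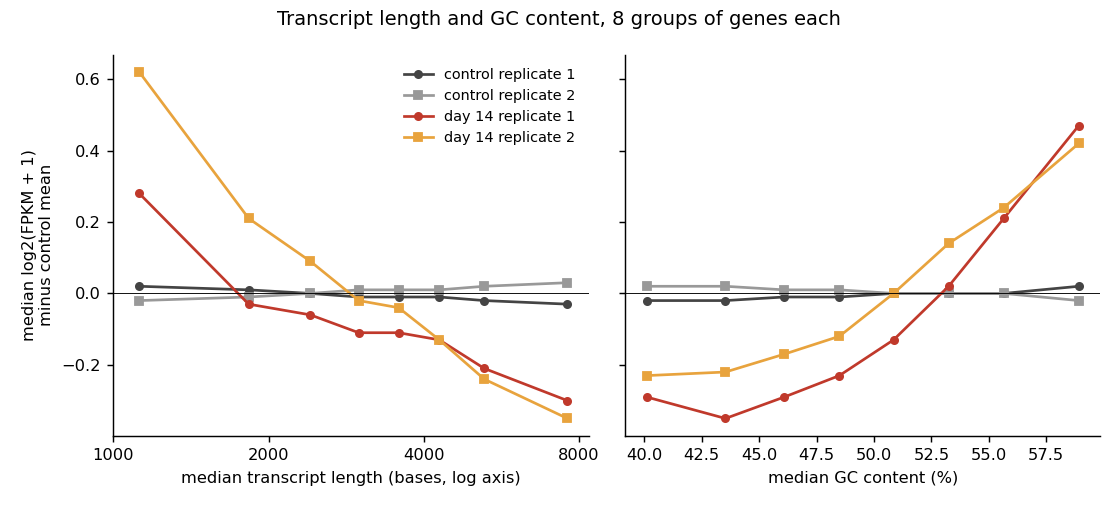
Median log2(FPKM + 1) minus the control mean in 8 equal groups of protein-coding genes, by median transcript length (left, bases on a log axis) and by median GC content (right, percent), with 1 line per library. Both day 14 lines fall with length, from 0.28 and 0.62 to -0.30 and -0.35, and rise with GC content, while the control lines stay near 0.

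Promoters of 3 genes are shown because their levels carry the findings on the clock, on feeding and on metallothioneins below. The windows run from 250 bases before to 50 bases after the gene start, in RefSeq's sequence of build GRCm38.p6. Capitals mark matches on either strand, and overlapping matches would run together. For Ciart (chr3:95882179-95882478, minus strand) they mark CACGTG, the E-box that Arntl and Clock bind. For Igfbp1 (chr11:7197537-7197836, plus strand) they mark CAAAACA, the core of its insulin response element, which FoxO factors bind. For Mt2 (chr8:94172368-94172667, plus strand) they mark TGCNCNC, a looser form of the core of the metal response element, with N for any base.
Ciart: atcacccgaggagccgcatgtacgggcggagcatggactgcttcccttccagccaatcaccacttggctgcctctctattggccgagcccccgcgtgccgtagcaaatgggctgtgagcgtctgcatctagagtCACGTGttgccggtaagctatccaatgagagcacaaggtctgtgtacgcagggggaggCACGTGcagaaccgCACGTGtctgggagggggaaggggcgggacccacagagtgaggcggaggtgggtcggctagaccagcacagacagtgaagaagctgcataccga
Igfbp1: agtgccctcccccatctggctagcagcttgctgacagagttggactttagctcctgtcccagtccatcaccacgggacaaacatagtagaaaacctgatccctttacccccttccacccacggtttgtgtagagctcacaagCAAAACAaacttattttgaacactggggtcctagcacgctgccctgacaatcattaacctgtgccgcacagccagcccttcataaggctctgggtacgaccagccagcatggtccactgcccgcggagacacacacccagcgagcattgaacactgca
Mt2: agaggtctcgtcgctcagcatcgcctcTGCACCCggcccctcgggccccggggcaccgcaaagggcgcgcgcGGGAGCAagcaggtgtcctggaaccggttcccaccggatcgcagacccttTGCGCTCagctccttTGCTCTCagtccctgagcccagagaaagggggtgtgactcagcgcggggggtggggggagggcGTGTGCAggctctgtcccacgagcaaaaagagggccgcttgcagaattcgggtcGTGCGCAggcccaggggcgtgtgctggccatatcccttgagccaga
Ciart holds 3 matches, starting at -116, -58 and -44 from the gene start. Of 32851 promoters of the same length 7.15% hold at least 1 E-box and 0.0883% at least 3. Igfbp1 holds 1 match at -108, and 6.28% of promoters hold at least 1. The looser form TGCNCNC is short and common, with at least 1 match in 51% of promoters, and Mt2 holds 6, a number reached by 0.225% of promoters. Matches to the stricter core were not counted apart. A match describes these letters and is no measured binding site.

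Clock genes were among the most changed in the liver at day 14. Of 22 tested members of a list of 25, 10 rose and 4 fell, against 15.0% and 13.6% of all genes, with a median log2 change of 0.82. Of these 14, Ciart, Per3 and Npas2 had their direction fixed by the filter. With the length and GC trend removed, 8 rose and 3 fell. The genes that rose were mostly repressors and outputs of the clock, and those that fell were its activators Arntl, Clock and Npas2, together with Rora. Ciart, a repressor of Arntl and Clock, stood at 0.165 and 0.587 FPKM in control and at 30.7 and 31.4 FPKM at day 14 (log2 change 4.56 ± 0.22 SE; adjusted p = 0.00297). The period gene Per2 stood at 2.29 and 1.80 FPKM in control and 39.9 and 20.5 FPKM at day 14 (3.29 ± 0.34; adjusted p = 0.0135). Dbp, a transcription factor driven by the clock, stood at 2.96 and 1.10 FPKM against 32.0 and 31.5 FPKM (3.50 ± 0.33; adjusted p = 0.0135). Each of these 3 genes was higher in both day 14 libraries than in either control. Usp2, a deubiquitinase under clock control, went from 1.23 and 1.38 FPKM to 50.2 and 23.4 FPKM (3.94 ± 0.37; adjusted p = 0.0135). Genes of the list named from here on were chosen after their values were seen. Arntl, the activator, stood at 6.91 and 8.98 FPKM in control and at 1.27 and 1.10 FPKM at day 14 (-2.02 ± 0.20; adjusted p = 0.0135). Its partner Clock stood at 7.80 and 8.73 FPKM in control and at 3.13 and 2.72 FPKM at day 14 (-1.24 ± 0.18; adjusted p = 0.0165). Npas2, which can replace Clock, stood at 1.68 and 1.26 FPKM in control and was listed at 0 in both day 14 libraries. Ciart, Per2, Dbp and Usp2 thus lay above both controls in both day 14 libraries, and Arntl and Clock below both. Per3 rose by 2.72 ± 0.20 (adjusted p = 0.00897) and the deadenylase Noct by 2.71 ± 0.49 (adjusted p = 0.0217).

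Not all clock genes were called. The repressors Nr1d1, Nr1d2 and Cry1 had log2 changes of -0.65 ± 0.34, 0.05 ± 0.21 and 0.42 ± 0.20. Per1 rose by 1.27 ± 0.34 (adjusted p = 0.0436), the output Tef by 1.60 ± 0.25 (adjusted p = 0.0170), and Rora fell by 1.03 on the log2 scale (SE 0.22; adjusted p = 0.0276). In the 4 day 2 libraries Ciart ranged from 3.73 to 14.4 FPKM and Arntl from 1.52 to 6.00 FPKM. Of these 4, 1 has d1 in its title, though its age label reads day 2 after hepatectomy. Without control replicate 1, 5 members were higher and 1 lower, and without control replicate 2, 5 were higher and 2 lower. Dbp, Per2, Usp2 and Arntl kept their call without each of the 4 libraries in turn. The hour at which the mice were killed is not in the labels used here.

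**Figure D2:**
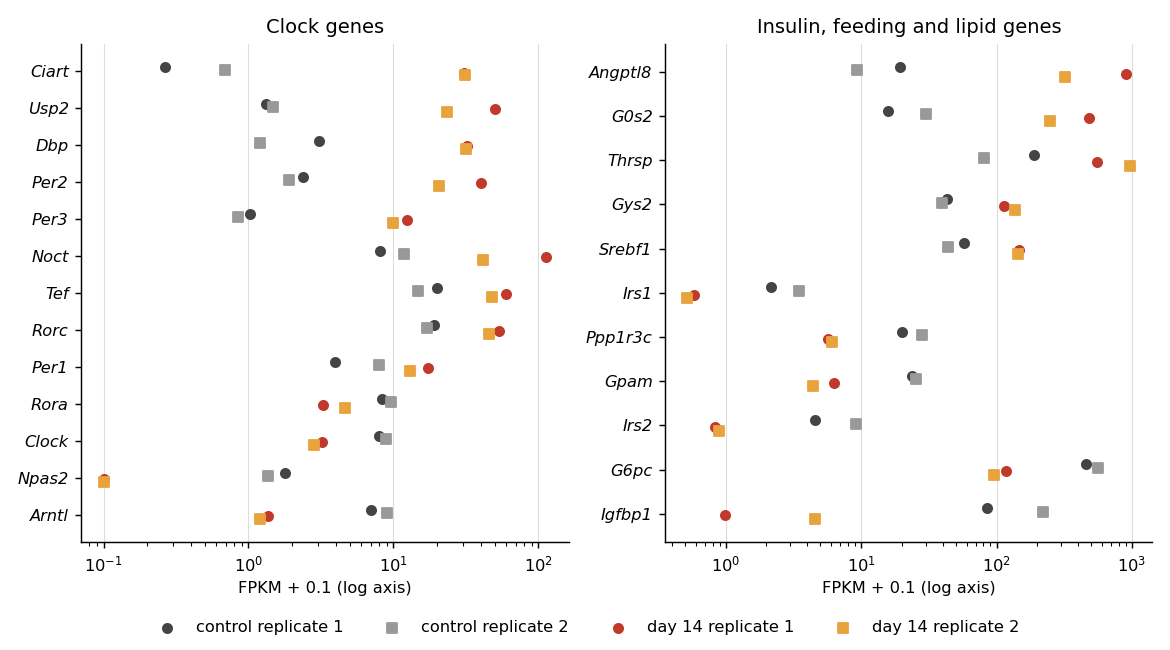
FPKM + 0.1 on a log axis in each of the 4 libraries for genes of the clock (left) and of insulin, feeding and lipid metabolism (right), with 1 point per library. The 2 day 14 points lie on one side of both control points for every gene drawn, as for Ciart at 30.7 and 31.4 against 0.165 and 0.587 FPKM. The genes drawn are a selection, and uncalled clock genes such as Nr1d1, Nr1d2 and Cry1 are left out. Groups did not overlap for 73.1% of all genes tested. Ciart, Per3, Npas2, Irs1 and Irs2 had their direction fixed by the filter. Npas2 at day 14 is drawn at 0.1 because it was listed at 0.

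Genes that respond to insulin and feeding moved in both directions. Of 19 tested members of 21, 4 rose and 7 fell, with a median of -0.37. Of the 7, 4 had passed the filter through the controls alone, Irs2 among them. After trend removal 4 rose and 5 fell. Igfbp1, a binding protein of insulin-like growth factors that insulin lowers, stood at 85.4 and 222 FPKM in control and at 0.888 and 4.49 FPKM at day 14 (-5.43 ± 0.65; adjusted p = 0.0144). Angptl8, a secreted inhibitor of lipoprotein lipase that rises with feeding, stood at 19.2 and 9.18 FPKM against 896 and 320 FPKM (5.23 ± 0.58; adjusted p = 0.0139). For these 2 genes, picked among those that rose or fell most, groups that do not overlap were a condition of the choice. Srebf1, the regulator of fat synthesis, rose by 1.50 ± 0.23 (adjusted p = 0.0172). Irs2, an insulin receptor substrate, stood at 4.47 and 9.04 FPKM in control and 0.729 and 0.787 FPKM at day 14 (-2.08 ± 0.32; adjusted p = 0.0169). Igfbp1 in the 4 day 2 libraries ranged from 283 to 1940 FPKM, above both controls.

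Among 25 genes of glucose production and glycogen, all tested, 4 rose and 5 fell, with a median of 0.21, and 3 rose and 3 fell after trend removal. G6pc, the last step of glucose release, stood at 454 and 557 FPKM in control and at 117 and 96.0 FPKM at day 14 (-2.23 ± 0.25; adjusted p = 0.0139). Gys2, the liver glycogen synthase, rose by 1.58 ± 0.22 (adjusted p = 0.0154). The lipogenesis list, with 23 of 24 tested, had 4 higher and 6 lower and a median of -0.41, and after trend removal 4 higher and 2 lower. Thrsp, which promotes fat synthesis, stood at 188 and 80.5 FPKM against 551 and 972 FPKM (2.56 ± 0.49; adjusted p = 0.0236), while Gpam, the first enzyme of glycerolipid assembly, fell from 23.6 and 25.4 FPKM to 6.21 and 4.31 FPKM (-2.04 ± 0.23; adjusted p = 0.0139). G0s2, an inhibitor of fat breakdown, went from 15.7 and 29.9 FPKM to 484 and 248 FPKM (3.93 ± 0.44; adjusted p = 0.0140). The day 14 libraries did not overlap the controls for any of these genes. Of the 9 called genes named for feeding, glucose and lipogenesis, 5 kept their call without control replicate 1 and 4 without control replicate 2. All 9 kept it with the length and GC trend removed, and 4 of the 9 kept it with all 8 libraries in the fit. Clock genes changed between the same libraries, feeding at sampling is not in the labels used here, and the part of either in these differences was not tested.

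Of 25 genes of cholesterol synthesis and sterol control 4 were called lower, against 13.6% of all genes, and 1 higher, with a median of -0.54. Idi1, an isomerase of sterol building blocks, stood at 67.0 and 72.7 FPKM in control and at 2.48 and 9.26 FPKM at day 14 (-3.57 ± 0.51; adjusted p = 0.0158). Insig2, which holds back the sterol sensor, stood at 248 and 213 FPKM against 14.5 and 25.4 FPKM (-3.51 ± 0.31; adjusted p = 0.0133). The fatty acid desaturase Fads2 fell by 1.80 on the log2 scale (SE 0.40; adjusted p = 0.0296). Idi1 and Insig2 kept their call without each library in turn. The list's median against control was -0.89 in day 14 replicate 1 and -0.17 in replicate 2. Apolipoproteins rose in 8 of 18 genes and fell in 1, with a median of 0.33. Apoa1, the main protein of HDL, rose from 8654 and 7868 FPKM to 21142 and 19644 FPKM (1.30 ± 0.29; adjusted p = 0.0294), and Apoc1 by 1.64 ± 0.29 (adjusted p = 0.0212). Once the length and GC trend was taken out, Apoa1 and Apoc1 were at 0.74 and 0.83 and no longer called, and 3 apolipoproteins were called higher. Apom, which carries sphingosine phosphate on HDL, was the gene that fell, from 285 and 282 FPKM to 29.8 and 66.7 FPKM (-2.64 ± 0.40; adjusted p = 0.0169).

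Mitochondrially encoded transcripts were the list with the highest median, 2.44 against -0.01 over all genes. Of the 13 respiratory genes of the mitochondrial genome, 8 rose and none fell. mt-Nd1, a subunit of complex I, stood at 7208 and 7265 FPKM in control and at 87288 and 28643 FPKM at day 14 (2.79 ± 0.57; adjusted p = 0.0258). mt-Nd4, of the same complex, stood at 3939 and 3981 FPKM against 42311 and 13027 FPKM (2.57 ± 0.58; adjusted p = 0.0312). mt-Co2, a subunit of complex IV, stood at 130 and 197 FPKM against 2077 and 518 FPKM (2.69 ± 0.67; adjusted p = 0.0375). Day 14 replicate 1 lay above replicate 2 for each, and both lay above the controls. The median over the 13 genes was 3.34 in day 14 replicate 1 and 1.42 in replicate 2. No member was called without control replicate 1 or without control replicate 2. Without day 14 replicate 1, mt-Nd1, mt-Nd4 and mt-Co2 were at 1.98, 1.72 and 1.69, and without replicate 2 they were at 3.59, 3.42 and 3.69. With the length and GC trend removed, 3 of the 13 were called, mt-Nd1 and mt-Nd4 among them, and mt-Co2 was not. Of the 5 members that were not called, mt-Nd4l overlapped the controls in day 14 replicate 2, where it lay between their 49.7 and 68.0 FPKM.

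**Figure D3:**
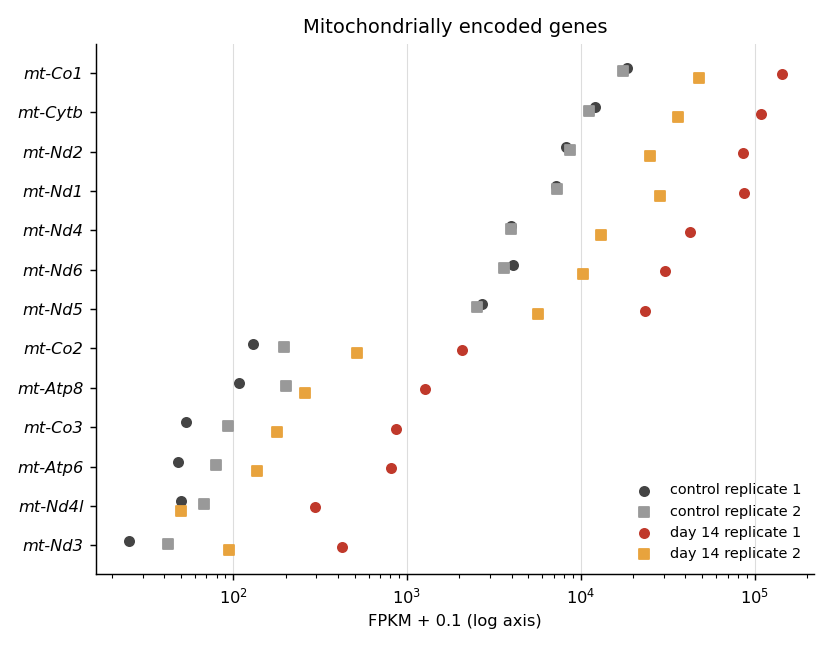
FPKM + 0.1 on a log axis for the 13 mitochondrially encoded respiratory genes, with 1 point per library and genes ordered by their control mean. Day 14 replicate 1 is the highest point for every gene, and replicate 2 lies above both controls except for mt-Nd4l.

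Nuclear genes for the respiratory chain did not move as far. Of 45, 13 rose and 1 fell, with a median of 0.47, at 0.17 in day 14 replicate 1 and 0.78 in replicate 2. Uqcrq, a small subunit of complex III, stood at 489 and 399 FPKM in control and 1730 and 1624 FPKM at day 14 (1.92 ± 0.25; adjusted p = 0.0148). Cox7c, of complex IV, rose by 1.68 ± 0.25 (adjusted p = 0.0166) and Atp5j, of the ATP synthase, by 1.57 ± 0.25 (adjusted p = 0.0180). The gene that fell was Sdha, the flavoprotein of complex II, from 218 and 232 FPKM to 48.1 and 95.0 FPKM (-1.72 ± 0.36; adjusted p = 0.0269). Once the length and GC trend was taken out, 10 rose, 1 fell and the median was 0.19. In fatty acid oxidation and ketogenesis none of 29 genes rose and 2 fell. They were Etfdh, which passes electrons from fatty acid oxidation to the respiratory chain (-1.94 ± 0.31; adjusted p = 0.0181), and Hadha, of the trifunctional protein (-1.34 ± 0.30; adjusted p = 0.0301). None of the called genes named in these 2 paragraphs kept its call without control replicate 1 or without control replicate 2.

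Of 32 acute phase genes, which the liver raises in inflammation, 5 were called higher and 5 lower, against 15.0% and 13.6% of all genes. Their median was -0.19 in day 14 replicate 1 and 0.76 in replicate 2. Saa3, a serum amyloid A gene, stood at 5.58 and 5.42 FPKM in control and at 39.8 and 81.7 FPKM at day 14 (3.16 ± 0.36; adjusted p = 0.0140). Hamp, which encodes the iron hormone hepcidin, stood at 1453 and 2958 FPKM against 12713 and 11186 FPKM (2.52 ± 0.41; adjusted p = 0.0181). Orm2, an orosomucoid with near-identical copies, stood at 40.7 and 48.9 FPKM against 215 and 1090 FPKM (3.41 ± 0.74; adjusted p = 0.0288), and was at 2.24 without day 14 replicate 2. Levels of such copies are uncertain because shared reads may be divided between them. Saa1 and the iron-binding Lcn2 were uneven between the day 14 libraries and were not called in this fit. Saa1 stood at 815 and 576 FPKM in control and 508 and 3132 FPKM at day 14 (0.88, 95% interval -1.23 to 2.99; adjusted p = 0.451), and without day 14 replicate 1 was called, at 2.19 (adjusted p = 0.0152). Lcn2 stood at 16.5 and 33 FPKM against 58.4 and 296 FPKM (2.44, 95% interval 0.48 to 4.41 before adjustment; adjusted p = 0.0668), and without day 14 replicate 1 was called, at 3.61 (adjusted p = 0.0167). Fibrinogen fell, with Fga at 2722 and 3730 FPKM in control and 378 and 1092 FPKM at day 14 (-2.31 ± 0.54; adjusted p = 0.0331) and Fgg at -1.57 ± 0.41 (adjusted p = 0.0411). Fga was at -1.54 without day 14 replicate 1.

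Signalling genes of interleukin 6 and STAT3 were higher for 5 of 16 tested and lower for 4, with a median of 0.81. Cebpb, a transcription factor of the acute phase, stood at 19.2 and 26.8 FPKM in control and at 133 and 95.7 FPKM at day 14 (2.26 ± 0.28; adjusted p = 0.0144). Socs3, a feedback inhibitor of STAT3, rose by 1.56 ± 0.19 (adjusted p = 0.0144), and Il6st, the shared receptor chain gp130, fell by 1.58 on the log2 scale (SE 0.26; adjusted p = 0.0180). The neutrophil chemokine Cxcl1 stood at 2.77 and 10.3 FPKM in control and at 33.3 and 30.4 FPKM at day 14 (2.33 ± 0.51; adjusted p = 0.0299). Of the 14 called genes named for the acute phase, STAT3, metallothioneins and complement, 3 kept their call without control replicate 1, 6 without control replicate 2 and 11 without day 14 replicate 1 or without day 14 replicate 2. In the fit of all 8 libraries 9 of the 14 were called. Cxcl1 was at 1.53 without control replicate 1 and lost its call there and without either day 14 library. With the length and GC trend removed, 5 members of the STAT3 list were higher and 1 lower.

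Metallothioneins, which bind zinc and copper, were higher but uneven in the controls. Mt2 stood at 5.09 and 91.7 FPKM in control and at 433 and 957 FPKM at day 14 (4.76 ± 1.25; adjusted p = 0.0421). Mt1 stood at 16.1 and 128 FPKM against 628 and 1599 FPKM (4.42 ± 0.99; adjusted p = 0.0307). Both day 14 libraries lay above both controls for each gene, and on the log2 scale the controls lay further apart than the day 14 libraries. Without control replicate 1 the log2 changes were 2.80 for Mt2 and 2.96 for Mt1, neither called, and without control replicate 2 they were 6.73 and 5.88, both called. Neither was called without day 14 replicate 1 or without day 14 replicate 2, and Mt2 lost its call with the length and GC trend removed. In the 4 day 2 libraries Mt2 ranged from 3488 to 8891 FPKM.

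Of 31 complement genes tested 4 were called higher and 4 lower, against 15.0% and 13.6% of all genes, with a median of -0.24. C4a stood at 33.8 and 59.5 FPKM in control and at 1900 and 622 FPKM at day 14 (4.57 ± 0.58; adjusted p = 0.0144). Its near-identical copy C4b, named after its values were seen, stood at 367 and 427 FPKM against 1027 and 1065 FPKM (1.40 ± 0.24; adjusted p = 0.0197). How reads were shared between them is not known. Masp1, a protease that starts the lectin pathway, stood at 27.7 and 27.3 FPKM against 1.63 and 2.34 FPKM (-3.27 ± 0.21; adjusted p = 0.00810). Vtn, vitronectin, which restrains the terminal complex, rose by 1.55 ± 0.27 (adjusted p = 0.0203). C4a, Masp1 and Saa3 kept their call whichever of the 4 libraries was left out. Of coagulation and fibrinolysis genes 11 of 28 fell and 1 rose, with a median of -0.56, at -0.91 in day 14 replicate 1 and -0.18 in replicate 2. F8, coagulation factor VIII, stood at 3.30 and 2.67 FPKM in control and at 0.205 and 0.380 FPKM at day 14 (-1.62 ± 0.19; adjusted p = 0.0144). Without control replicate 1 or without control replicate 2, 1 coagulation gene was called, and with the length and GC trend removed 8 were lower.

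The hepatocyte genes Alb and Hnf4a and the fetal gene Afp were not called in this fit. Alb, albumin, stood at 29161 and 32804 FPKM in control and at 23786 and 26113 FPKM at day 14 (-0.31, 95% interval -1.07 to 0.45; adjusted p = 0.460), but with quantile scaling it was called lower, at -1.48 (adjusted p = 0.0167). Hnf4a, the transcription factor that maintains hepatocyte identity, stood at 121 and 146 FPKM against 136 and 120 FPKM (-0.05, 95% interval -0.63 to 0.52; adjusted p = 0.880). The fetal gene Afp stood at 0.970 and 1.09 FPKM against 1.22 and 0.213 FPKM (-0.31, 95% interval -1.10 to 0.48; adjusted p = 0.485), and was called lower without day 14 replicate 1, at -0.74 (adjusted p = 0.0439). These intervals still allow changes of up to about 1 log2 unit for Alb and Afp. Among 32 hepatocyte transcription factors 3 rose and 5 fell, with a median of -0.01. Nr1i3, the xenobiotic receptor CAR, rose from 54.2 and 64.1 FPKM to 285 and 216 FPKM (2.06 ± 0.25; adjusted p = 0.0144), and Nr1h4, the bile acid receptor FXR, by 1.39 ± 0.28 (adjusted p = 0.0259). Nr5a2, which drives bile acid genes, fell by 1.36 on the log2 scale (SE 0.20; adjusted p = 0.0164).

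Bile acid synthesis genes rose in 1 of 20 and fell in 3, and bile acid and organic anion transporters fell in 6 of 18 tested and rose in none. Cyp7a1, which limits the rate of bile acid synthesis, stood at 10.8 and 28.7 FPKM in control and at 33.2 and 46.7 FPKM at day 14 (1.11, 95% interval -0.06 to 2.28; adjusted p = 0.124). Its log2 change was 0.44 without control replicate 1 and 1.78 without control replicate 2. Cyp8b1, which sets the bile acid mix, stood at 191 and 189 FPKM against 12.3 and 66.3 FPKM (-2.67 ± 0.73; adjusted p = 0.0466), and was at -1.50 without day 14 replicate 1. Slco1a1, an uptake transporter, stood at 161 and 164 FPKM against 27.7 and 38.0 FPKM (-2.29 ± 0.24; adjusted p = 0.0135). Cyp7a1 was thus uncalled and Cyp8b1 lower, though the 2 genes act in the same pathway. Their difference was not tested. In the 4 day 2 libraries Cyp8b1 ranged from 0.527 to 5.04 FPKM and Cyp7a1 from 0 to 2.42 FPKM.

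Drug-metabolising cytochromes P450 were higher for 2 of 34 tested and lower for 5, with a median of -0.24. Among the higher and among the lower, 1 gene had its direction fixed by the filter. Cyp2a5, a coumarin hydroxylase with near-identical copies, stood at 103 and 97.3 FPKM in control and at 494 and 798 FPKM at day 14 (2.64 ± 0.30; adjusted p = 0.0142). Cyp2c29 stood at 790 and 1028 FPKM against 105 and 343 FPKM (-2.24 ± 0.57; adjusted p = 0.0396), and was at -1.39 without day 14 replicate 1. Ugt3a1, a glycosyltransferase, stood at 47.8 and 50.2 FPKM against 0.904 and 4.46 FPKM (-3.95 ± 0.49; adjusted p = 0.0144). Of 16 genes for the urea cycle and ammonia 1 rose and 5 fell, with a median of -0.64, and 1 rose and 4 fell after trend removal. Cps1, its first enzyme, stood at 726 and 827 FPKM against 164 and 359 FPKM (-1.67 ± 0.41; adjusted p = 0.0368), was at -1.11 without day 14 replicate 1 and lost its call with the length and GC trend removed. Asl, argininosuccinate lyase, rose from 193 and 228 FPKM to 525 and 645 FPKM (1.47 ± 0.25; adjusted p = 0.0193). Methionine, glycine and one-carbon enzymes fell in 4 of 24 tested and rose in 1, with Cbs, which opens the way from homocysteine to cysteine, at 261 and 320 FPKM against 69.9 and 92.0 FPKM (-1.84 ± 0.26; adjusted p = 0.0156). Of the 12 called genes named here for transcription factors, bile acids, drugs, amino acids and clotting factor F8, 2 kept their call without control replicate 1 and 2 without control replicate 2. The genes that kept it in both were Ugt3a1 and F8, the latter with its direction fixed by the filter. With all 8 libraries fitted, 5 of the 12 kept it.

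Of 35 tested genes that are higher in male liver, which the pulses of male growth hormone maintain, 6 were called lower, against 13.6% of all genes, and none higher, with a median of -0.02. After trend removal 2 were higher and 5 lower. Elovl3, a fatty acid elongase, stood at 330 and 382 FPKM in control and at 12 and 33.8 FPKM at day 14 (-4.07 ± 0.48; adjusted p = 0.0144). Hsd3b5, a steroid reductase, stood at 206 and 189 FPKM against 66.7 and 49.0 FPKM (-1.77 ± 0.25; adjusted p = 0.0156). Car3, carbonic anhydrase 3, stood at 2370 and 2604 FPKM against 857 and 1170 FPKM (-1.31 ± 0.28; adjusted p = 0.0284). All 3 were lower in both day 14 libraries than in either control. Moxd1, a monooxygenase, stood at 41.5 and 61.8 FPKM against 12.3 and 0.692 FPKM (-3.44 ± 0.93; adjusted p = 0.0452), was at -1.95 without day 14 replicate 2 and lost its call with the length and GC trend removed. Of 36 genes higher in female liver 12 were tested, 1 rose and 1 fell, and each of these had its direction fixed by the filter. Cyp2a4, the gene that rose, stood at 0.475 and 0.435 FPKM against 1.51 and 3.89 FPKM (1.27 ± 0.34; adjusted p = 0.0432), and was at 0.79 without day 14 replicate 2. It is a near-identical copy of Cyp2a5. In the growth hormone list 1 of 13 tested rose, Igf1 (1.03 ± 0.25; adjusted p = 0.0363), and 5 fell, among them Stat5b, the transcription factor that carries the hormone's signal (-1.20 ± 0.18; adjusted p = 0.0170). After trend removal 1 member of that list was higher and 2 were lower. Elovl3 kept its call without each library in turn, and of the 7 genes called here no other did. Of these 7, 2 kept their call in the fit of all 8 libraries.

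Genes of mitosis were mostly below 1 FPKM in these libraries. Mki67, a protein of cycling cells, was at 0.346 and 0.511 FPKM in control and 0.244 and 0.346 FPKM at day 14, below the filter. Of 30 genes of G2/M and mitosis 9 passed the filter, 2 rose and none fell. The 2 were Ube2c, which marks mitotic proteins for breakdown, at 1.31 and 1.52 FPKM against 2.66 and 4.04 FPKM (0.83 ± 0.22; adjusted p = 0.0445), and Cenpa, a histone of the centromere, at 4.50 and 4.21 FPKM against 7.88 and 8.25 FPKM (0.76 ± 0.18; adjusted p = 0.0329). Ube2c lost its call without day 14 replicate 2, at 0.60, and with the length and GC trend removed. In the 4 day 2 libraries Ube2c ranged from 0.516 to 247 FPKM. DNA replication and S phase genes rose in 5 of 25 tested of 32 and fell in none, with a median of 0.27. Gins2, of the replicative helicase, stood at 1.25 and 1.10 FPKM against 9.15 and 5.46 FPKM (1.90 ± 0.26; adjusted p = 0.0154), and Tk1, thymidine kinase, rose by 1.14 ± 0.22 (adjusted p = 0.0229). Among G1 genes 2 of 14 tested rose and 1 fell. Cdk4, the kinase partner of cyclin D and 1 of these 2, stood at 17.2 and 16.4 FPKM against 64.4 and 52.7 FPKM (1.74 ± 0.21; adjusted p = 0.0144). Cyclin E1, Ccne1, is a member of the S phase list and 1 of its 5 genes that rose. It was 1.03 ± 0.21 higher (adjusted p = 0.0257) and had passed the filter through its day 14 level alone. Cyclin D1, Ccnd1, stood at 4.25 and 6.15 FPKM against 6.86 and 9.24 FPKM and was not called (0.55, 95% interval -0.07 to 1.17; adjusted p = 0.143).

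The p53 targets rose in 2 of 16 tested and fell in 2. Cdkn1a, the cell cycle inhibitor p21, stood at 5.07 and 13.3 FPKM in control and at 3.39 and 2.67 FPKM at day 14 and was not called (-1.22, 95% interval -2.27 to -0.16 before adjustment; adjusted p = 0.0795). Its log2 change was -1.84 without control replicate 1 and -0.6 without control replicate 2. Bax, which promotes cell death, rose by 1.39 ± 0.27 (adjusted p = 0.0245) and was at 0.67, not called, with the length and GC trend removed. Growth factors and receptors rose in 5 of 22 tested and fell in 8, with a median of -0.32. Of the 8, 3 had passed the filter through the controls alone, and after trend removal 5 rose and 6 fell. Id1, a target of bone morphogenetic proteins that blocks differentiation factors, stood at 2.98 and 2.79 FPKM against 36.9 and 24.1 FPKM (2.99 ± 0.25; adjusted p = 0.0118). Id3, of the same family, stood at 38.2 and 24.8 FPKM against 144 and 156 FPKM (2.24 ± 0.27; adjusted p = 0.0144). Klb, the coreceptor for FGF15 and FGF21, fell from 6.60 and 5.95 FPKM to 1.23 and 1.34 FPKM (-1.67 ± 0.18; adjusted p = 0.0135). The groups did not overlap for these 3. Of the 10 called genes named for division, p53 and growth factors, 2 kept their call without control replicate 1 and 2 without control replicate 2. Id1 kept it in both. In the fit of all 8 libraries 5 of the 10 were called.

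Host genes of small nucleolar RNAs, which guide the chemical modification of ribosomal RNA, stood high at day 14. Of 12 tested members of a list of 16 nuclear and snoRNA host noncoding RNAs, 10 rose and none fell, with medians of 1.57 and 1.43 in day 14 replicates 1 and 2. Snhg3 stood at 11 and 10.7 FPKM in control and at 79.7 and 49.7 FPKM at day 14 (2.43 ± 0.28; adjusted p = 0.0140). Snhg8 stood at 27.5 and 25.7 FPKM against 116 and 96.8 FPKM (1.95 ± 0.21; adjusted p = 0.0139), and Snhg12 rose by 1.89 ± 0.28 (adjusted p = 0.0165). Meg3, an imprinted noncoding RNA, stood at 1.70 and 2.99 FPKM against 23.2 and 11.1 FPKM (2.38 ± 0.39; adjusted p = 0.0181). The nuclear RNAs Malat1 and Neat1 were not called, at -0.06 ± 0.34 and 0.48 ± 0.41. Without control replicate 1 none of the 12 was called and without control replicate 2 1 was, while the medians were 1.66 and 1.39. Once the length and GC trend was taken out, 9 rose and the median was 1.58. The listed genes share a feature with a wider class: of 112 tested processed transcripts 39.3% rose and 4.46% fell, and of 194 antisense genes 37.1% rose and 7.22% fell, against 13.7% and 14.1% of 10500 protein-coding genes. Strandedness of the counting is not stated, so antisense values may include reads of the gene opposite.

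Ribosome biogenesis genes rose in 6 of 23 and fell in 1, with a median of 0.40. Nop56, a core protein of the snoRNA complexes, stood at 10.3 and 13.8 FPKM in control and at 104 and 60.5 FPKM at day 14 (2.63 ± 0.32; adjusted p = 0.0144). Snora57, a small nucleolar RNA, was listed at 0 in both controls and at 66.8 and 46.0 FPKM at day 14 (adjusted p = 0.00230). It was listed at 0 in the 4 day 2 libraries as well, and FPKM of so short a gene depends on few fragments. Cytosolic ribosomal proteins rose in 13 of 39 and fell in 2, with a median of 0.52. Rps20 rose by 1.59 ± 0.22 (adjusted p = 0.0152) and Rpl38 by 1.75 ± 0.28 (adjusted p = 0.0180). These transcripts are short. With the length and GC trend removed, 9 rose, the median was 0.23 and Rpl38 was at 0.70 and not called.

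Genes of the unfolded protein and integrated stress responses, which raise folding capacity in the endoplasmic reticulum, fell in 12 of 23 tested and rose in 1, with a median of -1.04. Of the 12, 1 had passed the filter through the controls alone, so its direction was fixed. Canx, the chaperone calnexin, stood at 148 and 138 FPKM in control and at 19.9 and 43.5 FPKM at day 14 (-2.24 ± 0.39; adjusted p = 0.0197). Atf5, a transcription factor of the integrated stress response, stood at 174 and 214 FPKM against 49.9 and 56.5 FPKM (-1.84 ± 0.23; adjusted p = 0.0144). Dnajb9 and Sdf2l1, which assist the chaperone BiP, fell by 1.63 (SE 0.35; adjusted p = 0.0279) and 1.50 (SE 0.22; adjusted p = 0.0164) on the log2 scale. BiP itself, Hspa5, stood at 359 and 401 FPKM against 124 and 176 FPKM (-1.35 ± 0.27; adjusted p = 0.0247). The gene that rose was Ddit3, the stress factor CHOP, from 8.04 and 7.55 FPKM to 23 and 18.9 FPKM (1.31 ± 0.20; adjusted p = 0.0169). Hspa5 and Ddit3 are named after their values were seen. The same 23 genes had 12 called lower and 1 higher with the length and GC trend removed, with a median of -0.95. Without control replicate 1 or without control replicate 2 none was called, with medians of -1.07 and -0.91. Of the 11 called genes named for snoRNA hosts, ribosomes and folding, with Hspa5, Ddit3 and Snora57 left aside, most lost their call in each of these fits. Snora57, listed at 0 in both controls, kept its call in them.

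Markers of sinusoidal endothelium, Kupffer cells and stellate cells had medians below 0 at day 14. In bulk tissue, fewer cells of a type and less RNA per cell cannot be told apart. Of 24 genes of the sinusoidal endothelium 12 fell and none rose, with medians of -0.97 and -0.65 in day 14 replicates 1 and 2. Lyve1, a hyaluronan receptor of these vessels, stood at 4.12 and 3.78 FPKM in control and at 0.138 and 0.384 FPKM at day 14 (-1.98 ± 0.19; adjusted p = 0.0135). Kdr, the main receptor for VEGF, stood at 9.18 and 8.86 FPKM against 1.59 and 2.41 FPKM (-1.75 ± 0.21; adjusted p = 0.0144). Oit3 and Dnase1l3 fell by 1.97 (SE 0.29; adjusted p = 0.0164) and 1.90 (SE 0.30; adjusted p = 0.0177) on the log2 scale. Called or not, 20 of the 24 markers lay lower in both day 14 libraries than in either control, and 1 lay higher. Of all 11293 genes tested, 4173 lay lower in this way and 4079 higher. Not every marker followed, since the scavenger receptor Stab1, named after its values were seen, stood at 9.33 and 9.42 FPKM against 20.5 and 12.7 FPKM (0.72 ± 0.27; adjusted p = 0.0926). The summed level of the list was 244 and 220 FPKM in control and 121 and 153 FPKM at day 14. Once the length and GC trend was taken out, 10 fell and the median stayed at -0.73. Without control replicate 1 or without control replicate 2, 1 endothelial gene was called.

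Kupffer cells are the resident macrophages of the liver. Of their markers 8 of 17 tested fell and 2 rose, with a median of -0.76. Adgre1, which encodes F4/80, stood at 3.89 and 2.60 FPKM in control and at 0.207 and 0.157 FPKM at day 14 (-1.83 ± 0.22; adjusted p = 0.0144). Cd5l, a secreted macrophage protein, stood at 28.7 and 23.9 FPKM against 4.47 and 7.08 FPKM (-2.03 ± 0.26; adjusted p = 0.0144). Vsig4, a complement receptor, fell by 1.76 on the log2 scale (SE 0.26; adjusted p = 0.0161), and C1qb by 1.46 (SE 0.22; adjusted p = 0.0168). Clec4f, which defines mouse Kupffer cells and is named after its values were seen, stood at 44.9 and 40.3 FPKM against 34.8 and 31.1 FPKM and was not called (-0.36; adjusted p = 0.219). One of the 2 markers that rose was Id3, which other cells express too. The summed level of the list was 429 and 377 FPKM in control and 449 and 427 FPKM at day 14, so the sum did not fall. Stellate cell and matrix genes fell in 5 of 23 tested and rose in 1, with a median of -0.71. Reln, a marker of quiescent stellate cells, fell from 11.9 and 9.64 FPKM to 2.88 and 4.08 FPKM (-1.40 ± 0.23; adjusted p = 0.0180), and Col4a1, a basement membrane collagen, by 1.09 on the log2 scale (SE 0.19; adjusted p = 0.0195). Of the 10 called genes named for endothelium, macrophages and stellate cells, 2 kept their call without control replicate 1 and 3 without control replicate 2. All 10 kept it with the length and GC trend removed, and 5 with all 8 libraries in the fit. Lyve1 and Adgre1 were under 1 FPKM in both day 14 libraries and passed the filter through the controls alone. Markers of cholangiocytes and ductular cells, which line the bile ducts, did not lie lower. Of 18 listed 9 were tested and none was called in either direction, with a median of 0.34, at 0.42 in day 14 replicate 1 and 0.26 in replicate 2.

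**Figure D4:**
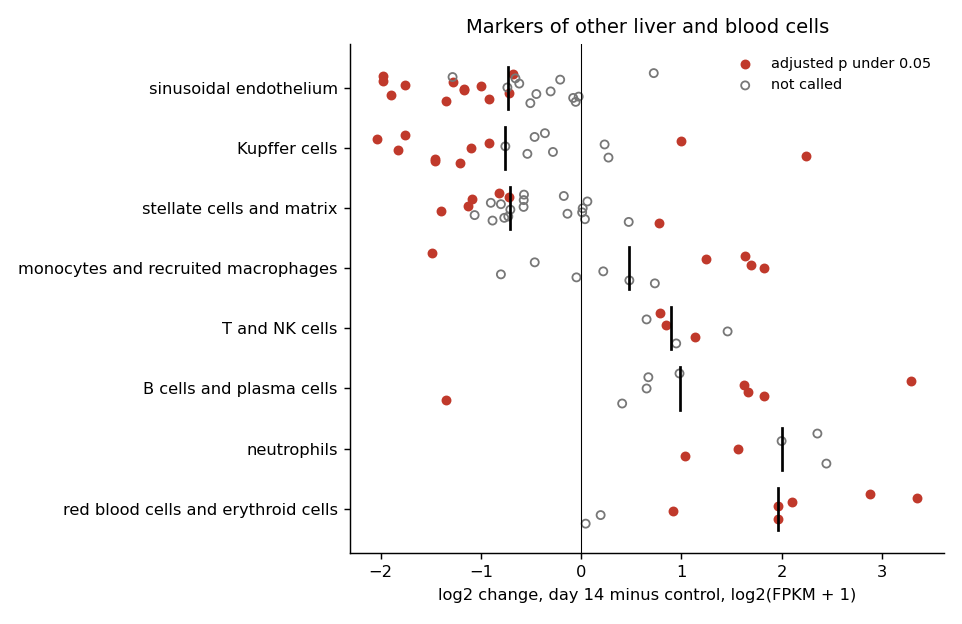
Log2 change, day 14 minus control, of each tested marker of 8 cell types, with filled points for an adjusted p under 0.05, open points for the others and a bar at the median of each list. Most endothelial, Kupffer and stellate points lie below 0, with medians of -0.73, -0.76 and -0.71, and most blood cell points above 0, where part of the blood cell genes passed the filter through day 14 alone.

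Red cell genes lay on the other side. Few blood cell genes passed the filter, and a gene that passed through its day 14 level alone had to differ. Of 15 erythroid genes 8 were tested, 6 rose and none fell. Of the 6, 1 had passed through day 14 alone. The globin gene Hba-a1 stood at 109 and 85.7 FPKM in control and at 1097 and 466 FPKM at day 14 (2.88 ± 0.44; adjusted p = 0.0170). Its near-identical copy Hba-a2 stood at 11.5 and 11.5 FPKM against 188 and 85.5 FPKM (3.35 ± 0.39; adjusted p = 0.0144). Hbb-bs rose by 2.11 ± 0.45 (adjusted p = 0.0281), and lost its call with the length and GC trend removed. The summed level of the list was 438 and 361 FPKM in control and 2790 and 1280 FPKM at day 14, with the higher value in the same library as for the mitochondrial genes. The erythroid factor Gata1 was at 0 in all 4 libraries. The part of blood left in the tissue was not tested.

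Of 19 genes of B cells and plasma cells 9 were tested and 5 of these passed through day 14 alone, so their counts in each direction are not given. Igkc, the kappa light chain, stood at 5.22 and 2.55 FPKM in control and at 44.0 and 45.7 FPKM at day 14 (3.29 ± 0.30; adjusted p = 0.0135), and Ighg1, an IgG heavy chain, at 0.0635 and 0.127 FPKM against 2.31 and 3.55 FPKM (1.83 ± 0.22; adjusted p = 0.0144). In the 4 day 2 libraries Igkc ranged from 3.04 to 15.0 FPKM. Of 17 monocyte and recruited macrophage genes 11 were tested, 4 rose and 1 fell, and of the 4, Chil3 and S100a4 had passed through day 14 alone. Chil3, made by monocytes and activated macrophages, was listed at 0 in both controls and at 2.46 and 2.60 FPKM at day 14 (adjusted p = 0.0135). S100a11 rose from 12.4 and 13.3 FPKM to 44.7 and 42.9 FPKM (1.69 ± 0.19; adjusted p = 0.0139), while Lyz2, lysozyme of macrophages, fell from 40.9 and 31.3 FPKM to 10.6 and 13.8 FPKM (-1.49 ± 0.24; adjusted p = 0.0181). Of 16 neutrophil genes 5 were tested, and the 2 that were called, Csf3r and Retnlg, had passed through day 14 alone, with Retnlg at 0.169 and 0.341 FPKM against 2.15 and 3.34 FPKM (1.56 ± 0.23; adjusted p = 0.0163). Of 22 T and NK cell genes 6 were tested and 5 of these passed through day 14 alone, so their direction was fixed, and none was called with the length and GC trend removed. Igkc and Hba-a2 kept their call without each of the 4 libraries in turn.

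Several of the most changed genes belong to none of the lists above. Rnf125, a ubiquitin ligase, stood at 84.5 and 68.6 FPKM in control and at 0.922 and 1.46 FPKM at day 14 (-5.15 ± 0.23; adjusted p = 0.00288). Ece1, the endothelin-converting enzyme, stood at 948 and 592 FPKM against 27.4 and 29.6 FPKM (-4.67 ± 0.30; adjusted p = 0.00810). Eif4ebp2, which holds back cap-dependent translation, stood at 40.8 and 45.2 FPKM against 2.07 and 5.77 FPKM (-3.27 ± 0.39; adjusted p = 0.0144). For these 3 genes, picked among those that fell most, groups that do not overlap were a condition of the choice. Camk1d, a calcium-dependent kinase, stood at 31.1 and 21.2 FPKM against 1.27 and 3.05 FPKM (-3.14 ± 0.35; adjusted p = 0.0139). Tnnc1, a troponin of slow muscle, rose from 0.964 and 0.209 FPKM to 30.1 and 11.2 FPKM (3.66 ± 0.49; adjusted p = 0.0151), while the muscle marker list was at 0.194 and 0.224 FPKM in sum at day 14. Serpina4-ps1, a pseudogene of a protease inhibitor, stood at 150 and 59.7 FPKM against 2394 and 868 FPKM (3.91 ± 0.63; adjusted p = 0.0181), and lost its call without control replicate 2, at 3.26. Rnf125, Ece1, Eif4ebp2 and Camk1d kept their call without each library in turn.

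Across the lists of at least 10 tested genes, medians ran from -1.04 for the unfolded protein and integrated stress responses to 2.44 for mitochondrially encoded genes. The 2 day 14 libraries lay on opposite sides of the control mean for acute phase, complement and proteasome genes among others. So did the medians over all genes tested, at -0.05 in replicate 1 and 0.04 in replicate 2. In replicate 2 complement and proteasome genes, at 0.04 and 0.09, lay near that value. Both day 14 libraries lay on the same side of the control mean, well away from it, for snoRNA hosts, clock genes, endothelial and Kupffer cell markers and the stress responses.

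**Figure D5:**
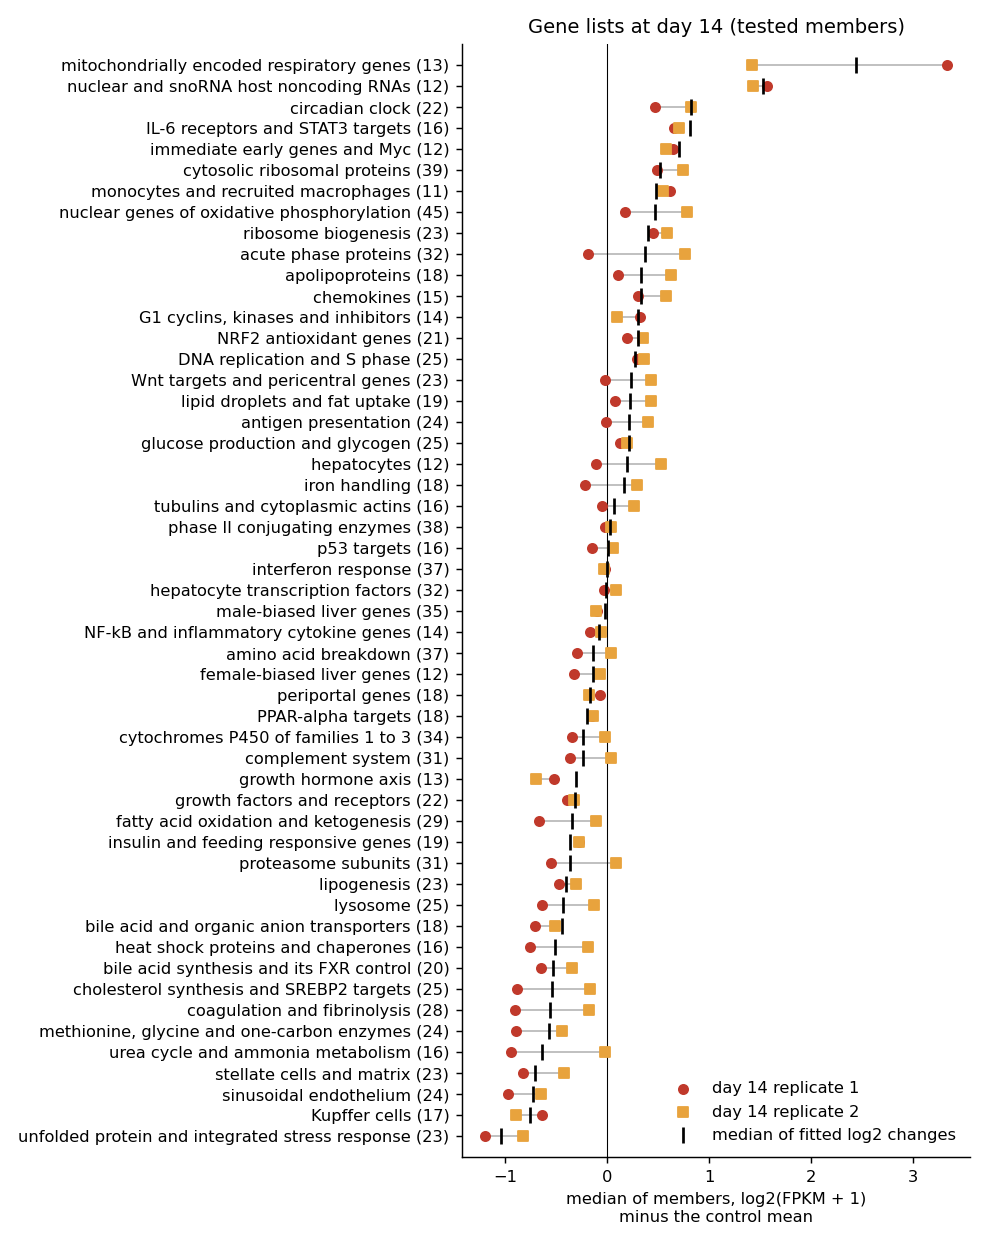
Median over the tested members of each list of log2(FPKM + 1) minus the control mean in day 14 replicate 1 (circles) and replicate 2 (squares), with a bar at the median of the fitted changes and the number of members in parentheses. By the median of the fitted changes mitochondrially encoded genes stand highest, at 2.44, and the stress response list lowest, at -1.04, while in day 14 replicate 2 alone snoRNA hosts, at 1.43, lie just above the mitochondrial 1.42.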

How the data were processed

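RNA from mouse liver was sequenced after Illumina TruSeq preparation from total RNA, per the labels' protocols. The authors deposited gene-level FPKM, 1 column per library. Per the submitters' processing notes, the tools were Cufflinks 2.2.1, DESeq2, HISAT2 2.10 and HTSeq, and the builds mm9 and GRCm38, without their roles. Which made the table, and any scaling between libraries, is not given in the sources used here, so depth is unknown and no coordinates are taken from the table's build. The only coordinates printed are those of promoter windows in RefSeq's GRCm38.p6.

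The deposited FPKM were taken as log2(FPKM + 1), and genes reaching 1 FPKM in 2 or more of the 4 libraries entered the fit. It used limma 3.58.1 (R 4.3.3) and a prior variance that depends on the mean level, on 2 residual plus 3.48 prior degrees of freedom. A gene was called where its Benjamini-Hochberg adjusted p was below 0.05. Replicate numbers at day 14 follow accession order. Transcript length (the longest transcript) and GC content came from GENCODE M21 by gene identifier, promoters from RefSeq. The length and GC trend was removed per library with splines of 4 degrees of freedom. The alternatives were pseudocount, filter, scaling, all 8 libraries in the fit, no trend, a 2-fold minimum, leaving out each library and, chosen after seeing the data, leaving out mitochondrial genes with equal totals. Figures were drawn with matplotlib 3.10.9.

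The members, gene lists and alternatives were chosen with earlier results of these data known, so list counts are descriptions. Named genes were the 12 called genes that rose most and the 12 that fell most, where groups did not overlap and the higher group averaged at least 5 FPKM, unnamed gene models left out, up to 4 called members per list (up to 2 others where none was called), and Mki67, Ccnd1, Cdkn1a, Alb, Cyp7a1, Cyp8b1, Saa1, Lcn2, Mt2, Car3, Afp, Hnf4a and Xist, from which the text gives a part. The fit was tested on simulated data. Fold changes were recovered without bias. In the first simulation, which took each gene's own noisy variance as true, no changed gene was called when few genes were changed. With variances drawn from the fitted prior, calls depended on how many genes changed: with few changed genes, 2-fold changes were not called and 4-fold changes were called in a minority. A gene that is not called may therefore have changed.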

Additional observations from a re-analysis of the deposited data

How the results depend on the processing

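The 3239 calls (1699 higher, 1540 lower) were 3052 with a pseudocount of 0.1, 2622 with a filter at 5 FPKM, 3380 with median-ratio and 3389 with quantile scaling, 3211 without the mean-variance trend and 2445 (1397 and 1048) with the length and GC trend removed. They were 2 (2 higher, 0 lower) with no filter on low values, 28 (16 and 12) when a change of more than 2-fold was tested for, and 1448 (763 and 685) with all 8 libraries in the fit. With mitochondrial genes left out and totals made equal, an alternative chosen after seeing the data, they were 3707 (1050 and 2657). Leaving out 1 library gave 194 to 5863 calls, 97 to 2739 higher and 97 to 3124 lower; leaving out a control assumes that the other varies like the day 14 libraries. The cause of these shifts was not tested. Of the genes printed here, Afp, Hnf4a and Saa1 were not called in the main comparison and changed sign when a library was left out, with log2 changes of -0.74 to 0.13, -0.19 to 0.08 and -0.43 to 2.19; without day 14 replicate 1, Afp was called lower and Saa1 higher. Fewer than 3 libraries per group limit every call. No paired analysis was possible because replicate numbers at day 14 follow accession order and the labels give no pairing with the controls.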
